A study of Mus musculus with 4 samples.

Results

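In 147 genes of restimulated mouse macrophages, the most abundant annotated transcript was not one classed as protein_coding but one classed as a target of nonsense-mediated mRNA decay (NMD). The genes were taken from those with at least 2 annotated transcripts and at least 1 TPM (a level corrected for transcript length and library size) in each of 4 libraries, leaving out names that start with Mx, Rpl, Rps or Srsf. Of 8443 such genes, 147 (1.74%) were led by an NMD transcript, meaning that the transcript with the highest mean TPM carried that annotation. They were 5.3% of the 2774 such genes that have an NMD transcript at all, and the gene tables held 55536 annotated genes. The levels that chose these genes are therefore described below and not tested.

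The cells were primary macrophages grown from bone marrow of C57BL/6J mice. Total RNA from the cytosol was sequenced after removal of ribosomal RNA. All 4 libraries belonged to 1 condition: 100 ng/ml lipid A for 12 h, washout for 12 h, then 100 ng/ml lipid A again for 15 min. Lipid A is the membrane anchor of bacterial endotoxin and is sensed by the receptor TLR4. The labels name the libraries as biological replicates 1 to 4, each with its own biosample but with 1 shared donor record, and record neither age nor sex, so p-values measure only the spread between these libraries, which may be partly technical. With no untreated cells and no cells with blocked decay among the samples used here, no change with treatment or with decay can be measured.

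Nonsense-mediated decay removes mRNAs whose stop codon is read as premature. After splicing, an exon junction complex stays just upstream of each junction, and a ribosome that stops well before the last junction leaves complexes on the RNA, which recruit the helicase UPF1 and the SMG proteins. Many genes use this by splicing in a "poison" exon or skipping an exon so that the frame runs into an early stop, and splicing factors such as the hnRNP proteins are known for regulating themselves in this way. The class used here is GENCODE's, assigned from the position of the annotated stop, and does not by itself show that an RNA is degraded.

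Total expected counts ran from 30660511 to 48223718 per library. All 16 macrophage markers lay above 1 TPM, with a summed level of 10485 to 15014 TPM per library. Fibroblast markers summed to 0.05 to 0.18 TPM and erythroid markers to 0.04 to 0.22 TPM. Other lineages were low: T cell markers summed to 12.6 to 29.8 TPM, almost all from Cd28 (23.2 ± 7.61 TPM, SD, n = 4), B cell markers to 4.86 to 12.6 (mostly Cd22 at 6.99 ± 3.11 and Cd79b at 1.36 ± 0.334), neutrophil markers to 9.9 to 17.1 and endothelial markers to 4.49 to 17.2. Above 1 TPM (the limma test described with the decay factors) were also S100a8, S100a9 and Mmp8 of the neutrophil list and Kdr (5 ± 4.29 TPM, 11.3 in replicate 4) and Vwf (3.01 ± 1.48 TPM, SD, n = 4) of the endothelial list. The part of such cells in the results was not tested. Other markers of the same lists were low: Cd3e (0.0625 ± 0.0675 TPM) and Ms4a1 (0.0075 ± 0.005 TPM, SD, n = 4) were near 0, and Pdgfra, Hbb-bs and Tek were at 0 in each library. Genes meeting the conditions above held 26.8%, 21.4%, 25.5% and 31.3% of the TPM in replicates 1 to 4, lowest in replicate 2 and highest in replicate 4. Retained-intron transcripts held 4.35% of that amount in replicate 2 and 2.86% to 3.57% in the others.

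The last 30 coding bases show where translation of a leading NMD transcript would end. The 8 below belong to highly expressed members whose transcript differs from the coding one in different ways. Sequences come from the GENCODE M21 transcripts (mm10), 5′ to 3′, with the stop codon in capitals.

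Ppia: caaagacagcagaaaactttcgagctcTGA

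Oasl2: aaccagcaccggcaatctacgagactcTGA

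Rnf114: tcatcctatctaagatccgggcccatgTGA

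Eif4a2: ttgcattggaggaacaaatgttcgaaaTGA

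Ostf1: gagcttcataaactactcctgagccatTAG

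Xaf1: aaacccgttgtgatctttgcaaacaaaTGA

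Rgs1: aagcagaaaaaaaggccaaagactttaTAA

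Hnrnpu: gtccatgtgaatgtgctgtgtgaagagTAA

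The stop of Ppia-201 lies at chr11:6418241-6418243 on the plus strand in bases that the coding transcript also contains, and the transcript adds 5 nt at chr11:6415980-6415984. In Oasl2-205 an internal exon of 289 nt (chr5:114899742-114900030) is skipped and the frame stops at chr5:114901288-114901290. Rnf114-203 lacks an exon of 151 nt (chr2:167507047-167507197) and stops at chr2:167510904-167510906. Eif4a2-210 lacks an exon of 140 nt (chr16:23109120-23109259) and stops at chr16:23110065-23110067. None of these 4 lengths is a multiple of 3.

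In the other 4 the stop or the junctions after it came with added sequence. Ostf1-205 has an exon of 77 nt (chr19:18598913-18598989, minus strand) that holds its stop at chr19:18598954-18598956. Xaf1-201 has an exon of 89 nt (chr11:72306564-72306652) with the stop at chr11:72306621-72306623, and Rgs1-204 an exon longer by 49 nt (chr1:144248560-144248608, minus strand) with the stop at chr1:144248605-144248607. Hnrnpu-206 keeps 2379 nt of coding sequence, stops at chr1:178325281-178325283 on the minus strand, and then has 3 further exon junctions, with exons of 122, 94 and 51 nt that lie beyond the 3′ end of the coding transcript.

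Gene levels of the members ran from 1.29 to 519 TPM with a median of 7.23. There were 61 members at 10 TPM or more, 7 at 100 or more, and 57 under 5. The leading NMD transcript held a median of 50.7% of its gene's TPM, with a range of 18.7% to 98.6%, and 77 members had over 50%. The median SD of this share over libraries was 4.12 percentage points. In the sum over all transcripts of a class, NMD transcripts held a median of 57.2% of the members' TPM and protein_coding transcripts 31.5%. The runner-up was protein_coding in 107 members, another NMD transcript in 25, a retained-intron transcript in 10 and a processed transcript in 5.

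Across the genes meeting the conditions, NMD transcripts together held 1.73% ± 0.0416 of the TPM (SD, n = 4), and protein_coding transcripts 90.9% ± 0.993. Within the members NMD transcripts held 58.0% ± 1.64 and protein_coding ones 31.7% ± 1.6 (SD, n = 4). The 147 leading transcripts alone carried 37.8% ± 1.71 of all NMD transcript TPM of the genes meeting the conditions. These values follow largely from the rule, which picked genes led by an NMD transcript. Retained-intron transcripts held 12.2% of the members' TPM in replicate 2 and 5.74%, 6.87% and 10.1% in replicates 1, 3 and 4. Replicate 4 had the highest gene TPM in 97 of 147 members and replicate 2 the lowest in 102. This order was not particular to the members. All genes meeting the conditions held 31.3% of the library TPM in replicate 4, the highest, and 21.4% in replicate 2, the lowest. Replicate 2 also had the lowest leading share in 57 members, and its part in these orders was not tested. In bulk libraries, fewer cells with a transcript and less RNA per cell cannot be told apart.

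Ppia encodes cyclophilin A, an abundant peptidyl-prolyl isomerase, and was the most highly expressed member at 519 ± 93.9 TPM (SD, n = 4). In replicates 1 to 4 its NMD transcript Ppia-201 (ENSMUST00000090749.12) had 355, 298, 279 and 401 TPM. The coding transcript Ppia-202 stood at 200, 139, 166 and 173 TPM, below the NMD transcript in each library with no overlap. Here and below, the rule ranked leader and runner-up by these same levels, so their separation is described and not tested. The share of Ppia-201 was 64.3% ± 2.34, and 70.4% ± 3.09 when the reads were quantified a second time, directly on the transcript sequences. The coding transcript also holds 429 bases that Ppia-201 lacks, so the pair differs by more than the 5 added nt. Counted by expected reads, with no length correction, the share was 51.5%. Ppia has many processed pseudogene copies, and reads shared with them are uncertain.

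The interferon-induced members were led by Oasl2, an antiviral 2′-5′-oligoadenylate synthetase-like protein, at 200 ± 39.4 TPM (SD, n = 4). Oasl2-205 had 110, 90.5, 132 and 144 TPM, in the same order of replicates, and the coding runner-up 47.1, 36.4, 45.9 and 63.8. The ranges did not overlap. The share was 59.5% ± 2.21 in the first quantification and 48.3% ± 2.98 in the second, and Oasl2-205 led in 4 of 4 libraries in both. Its start is annotated as not found, so the stop rests on an incomplete reading frame.

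Xaf1, a pro-apoptotic antagonist of the XIAP inhibitor, was the other interferon-stimulated gene of the list used here that was a member, at 111 ± 35.7 TPM (SD, n = 4). Xaf1-201 stood at 54.5, 31.6, 35.8 and 60.6 TPM against 31.8, 21.7, 22.5 and 53.5 for the coding runner-up. It was the higher of the pair within each library, but the ranges overlapped. This transcript is only 415 nt long, and its share was 41.4% of TPM but 9.05% of expected reads. Its stop lies 29 nt before its last junction, the only member under 50 nt. Gbp4, a guanylate-binding GTPase of the same response, stood at 41.8 ± 17.0 TPM with a share of 50.8% ± 2.64 (SD, n = 4), and its leading transcript overlaps the exons of Gbp8 on the same strand. Ifi214 is a member of the DNA-sensing Ifi200 family and had a share of 95.5% ± 2.43 at only 4.45 ± 1.3 TPM. Its share in the second quantification was 73.9% ± 18.7.

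The leukocyte receptors Lilr4b and Lilrb4a are neighbouring paralogs, and how reads divide between them is uncertain. Lilr4b stood at 255 ± 56.6 TPM, and its leading Lilr4b-204 at 116, 85.5, 82.3 and 124 TPM against 52.3, 38.3, 41.0 and 59.9 for the coding runner-up. Lilrb4a stood at 167 ± 29.5 TPM, with Lilrb4a-205 at 152, 79.4, 84.4 and 159. The Lilrb4a transcript was high in replicates 1 and 4 and low in replicates 2 and 3. Its share had an SD of 14.8 points around 69.5% and protein_coding transcripts held 8.83% of the gene. Lilr4b-204 has 5 nt that the coding transcript lacks and leaves out 100 nt of it. Lilrb4a-205 also has 5 added nt, and an added stretch of 285 nt that holds its stop. Both overlap exons of Gm49339 on the same strand, by 70 nt and 1339 nt.

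Rgs1, a GTPase activator that limits chemokine receptor signalling, had the largest SD relative to its mean among the 12 highest members, at 87.8 ± 49.2 TPM (SD, n = 4). Rgs1-204 stood at 43.6, 43.6, 26.8 and 85.2 TPM, with replicate 4 far above the others, while its share was 58.0% ± 3.09. The runner-up was a retained-intron transcript at 24.8, 27.4, 15.1 and 67.4 TPM, and protein_coding transcripts held only 4.33%. Il4ra, the interleukin-4 receptor alpha chain, stood at 43.3 ± 11.6 TPM with a share of 50.9% ± 5.01 in the first and 76.7% ± 2.56 in the second quantification. H2-Eb1, an MHC class II beta chain, stood at 40.4 ± 7.41 TPM with a share of 52.7% ± 3.79 and led in each library in both. Altogether 21 members were placed with innate immunity and the macrophage surface. Their gene level had a median of 13.6 TPM and their share a median of 50.8%, and 10 of them led in each library in both quantifications. Over all 147 members, 67 (45.6%) did so, the share to set beside this and the role groups below. Roles were counted among members only, so the counts of each role have no share over other genes beside them.

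**Figure D1:**
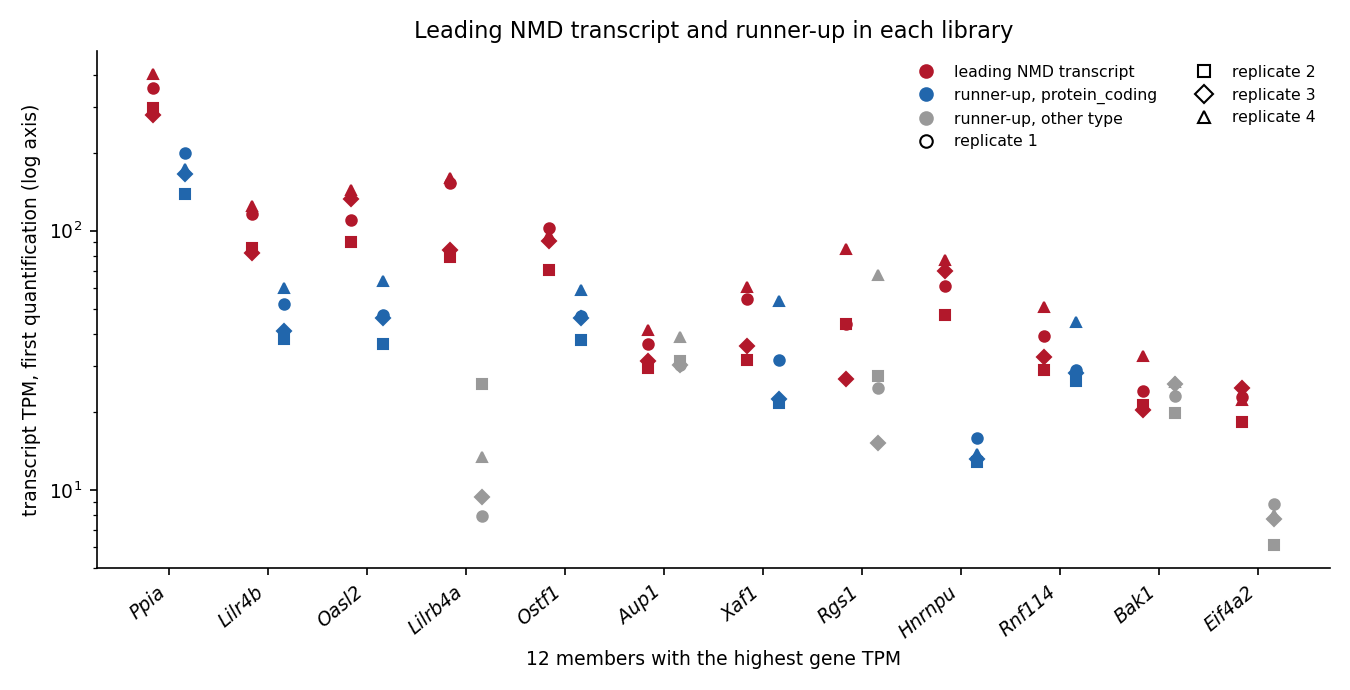
Transcript TPM of the leading NMD transcript (red) and of the runner-up (blue, protein_coding; grey, another type) in each library, on a log axis, for the 12 members with the highest gene TPM. Symbols mark replicates 1 to 4. In Ppia, Oasl2, Lilrb4a and Hnrnpu the red and coloured points are apart, while in Aup1, Rnf114 and Bak1 they overlap.

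Ostf1, an SH3 and ankyrin-repeat protein first described in osteoclasts, stood at 143 ± 20.6 TPM (SD, n = 4). Ostf1-205 was at 102, 70.5, 91.4 and 96.0 TPM and its coding runner-up at 46.7, 37.9, 45.9 and 59.0, with no overlap. The share was 63.0% ± 2.68 in the first and 63.0% ± 3.17 in the second quantification. Its exon of 77 nt occurs in no other annotated transcript of the gene.

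Genes of protein fate were among the highest members. Aup1 acts in lipid droplets and in the degradation of misfolded proteins of the endoplasmic reticulum, and stood at 124 ± 15.0 TPM (SD, n = 4). Aup1-208 was at 36.6, 29.5, 31.3 and 41.3 TPM, and a retained-intron transcript at 30.4, 31.3, 30.4 and 38.9, so the ranges overlapped and the NMD transcript was the lower of the pair in replicate 2. Rnf114, a ubiquitin ligase, stood at 70.1 ± 17.9 TPM. Rnf114-203 was at 39.1, 29.1, 32.4 and 50.9 TPM against 29.1, 26.2, 28.3 and 44.5 for the coding transcript, and led in no library of the second quantification, where its share was 37.9% ± 5.09 against 54.0% ± 2.16. Birc6, a very large ubiquitin-conjugating inhibitor of apoptosis, likewise led in 4 libraries in the first quantification and in 0 in the second (34.9% ± 1.59 against 19.7% ± 3.99).

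Bak1, a pore-forming effector of mitochondrial apoptosis, stood at 66.1 ± 13.7 TPM (SD, n = 4). Its leading Bak1-204 was at 24.1, 21.2, 20.3 and 32.9 TPM and another NMD transcript at 23.1, 19.7, 25.7 and 26.0, so that Bak1-204 was the lower of the pair in replicate 3. NMD transcripts together held 73.7%. Ppp2r2a, a regulatory subunit of protein phosphatase 2A, stood at 22.1 ± 5.28 TPM with a share of 50.7% ± 1.53. Of 11 members placed with signalling and cell death, 3 led in each library in both quantifications.

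RNA-binding and splicing genes gave 8 members. Hnrnpu, a scaffold-attachment protein that binds nascent RNA, stood at 79.5 ± 12.3 TPM, with Hnrnpu-206 at 61.2, 47.2, 69.9 and 76.7 TPM and the coding Hnrnpu-201 at 15.8, 12.8, 13.1 and 13.8. The lowest library of the NMD transcript was above the highest of the coding one. The share was 79.7% ± 3.97 in the first and 79.9% ± 4.86 in the second quantification (SD, n = 4). By expected reads it was 60.9%, and the coding transcript holds 5063 bases that Hnrnpu-206 lacks.

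Hnrnpd, the AU-rich element binding protein AUF1, was a member by a small margin at 43.5 ± 7.43 TPM. Hnrnpd-208 stood at 12.7, 12.2, 15.0 and 12.2 TPM and the coding Hnrnpd-203 at 15.6, 9.35, 12.9 and 13.1, so that the NMD transcript was the higher of the pair in replicates 2 and 3. The second quantification gave Hnrnpd-208 a share of 20.1% ± 3.05 with no library led. Ptbp2, the neuronal paralog of the polypyrimidine tract binding protein, stood at 2.21 ± 0.493 TPM (SD, n = 4). Ptbp2-206 skips the exon of 34 nt at chr3:119724612-119724645 on the minus strand and stood at 0.69, 0.63, 0.55 and 1.05 TPM against 0.66, 0.58, 0.7 and 0.76 for the coding runner-up. The ranges overlapped. Prpf4b, a splicing kinase, led in each library in both quantifications at 10.1 ± 1.6 TPM.

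Hnrnpu, Hnrnpd and Ptbp2 came from a list of 60 genes, mostly splicing and RNA-binding factors, many of them known for poison exons. It also holds Oaz1 and Sat1, which are not such factors. Of the 60 genes, 44 have an annotated NMD transcript. Of those 44, 3 were members, beside 5.3% of the 2774 genes with such a transcript. NMD transcripts held a median of 8.01% of the TPM of the 44, beside 2.43% over the 2774 genes. They held over 50% in 2 of the 44, Hnrnpu and Hnrnpdl, beside 3.79% of the 2774 genes. Hnrnpdl had 50.4% ± 4.98 in NMD transcripts (SD, n = 4) but was led by another type. Tardbp, which encodes TDP-43, had 38.7% ± 1.97, Hnrnpa1 36.8% ± 10.4 and the splicing kinase Clk1 35.3% ± 6.04. None of these 4 was a member, and no difference from other genes was tested.

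Genes of translation gave 16 members. Eif4a2, a helicase that unwinds mRNA for initiation, stood at 48.3 ± 2.1 TPM, the steadiest of the 12 highest on TPM as deposited. Rescaled to the same total over protein-coding genes, Eif4a2 stood at 159 ± 20.8 and was less steady than Ostf1 at 462 ± 21.9 (SD). Eif4a2-210 was at 22.8, 18.2, 24.7 and 22.3 TPM, and the runner-up was another NMD transcript at 8.81, 6.15, 7.7 and 8.03. NMD transcripts together held 66.9% and protein_coding ones 25.2%. Eif4a2-210 overlaps exons of Rfc4 on the opposite strand by 5 nt.

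The mitochondrial ribosome gave Mrpl3, Mrpl13, Mrpl32, Mrpl35 and Mrps14. Mrps14 had one of the highest shares of all members, 88.2% ± 1.72 at 18.1 ± 2.23 TPM (SD, n = 4): Mrps14-201 stood at 18, 14, 15.2 and 16.6 TPM and the coding transcript at 2.38, 1.35, 1.23 and 1.74. The pair did not overlap. Mrps14-201 adds 25 nt (chr1:160196921-160196945), and the coding transcript has 2350 bases that it lacks. Mrpl32 had a share of 79.4% ± 3.09 and Mrpl3 of 44.8% ± 5.38. Qars, the glutaminyl-tRNA synthetase, had 43.9% ± 4.33 at 20.3 ± 2.05 TPM. In all, 10 of the 16 led in each library in both quantifications.

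Lars2, the mitochondrial leucyl-tRNA synthetase, met the rule through 2 libraries. Lars2-209 stood at 7.92 and 8.81 TPM in replicates 1 and 4 and was listed at 0 in replicates 2 and 3, with gene levels of 10.9, 2.41, 2.49 and 13.2 TPM. Its second gene level, rescaled as described below, ran from 20.8 to 457 TPM, highest in replicate 1 and lowest in replicate 2.

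Members acting in mitochondria outside translation were 10, with a median share of 60.8%, and 7 of them led in each library in both. Mtch2, an outer-membrane insertase, stood at 29.6 ± 3.15 TPM with 60.4% ± 4.28 in a transcript that skips 85 nt. Ndufs4, a subunit of respiratory complex I, stood at 26.7 ± 4.19 TPM with 54.1% ± 4.52 in a transcript that skips 79 nt (SD, n = 4). Sdhaf2, an assembly factor of succinate dehydrogenase, stood at 18.6 ± 3.07 TPM with 49.6% ± 4.53. Mmaa, which serves vitamin B12 metabolism, had 89.0% ± 3.06 at only 1.49 ± 0.277 TPM.

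Enzymes of metabolism were 9. Hyi, hydroxypyruvate isomerase, had 94.2% ± 4.4 of 10.6 ± 1.16 TPM in Hyi-202, at 11.3, 10.4, 8.39 and 9.77 TPM (SD, n = 4), and its protein_coding transcripts were listed at 0. Hyi-202 overlaps another gene on the opposite strand by 2 nt. Prdx6, a peroxiredoxin, had 60.5% ± 4.85 of 19.5 ± 2.79 TPM in a transcript that skips 157 nt. Glo1, the glyoxalase that detoxifies methylglyoxal, had 50.2% ± 2.44, with Glo1-201 at 7.26, 5.13, 6.1 and 5.45 TPM against 6.5, 4.11, 5.45 and 5.46, which overlapped.

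Chromatin, transcription and DNA repair gave 21 members with a median share of 48.0%. Cbx1, the heterochromatin protein HP1 beta, had 59.4% ± 1.49, and Aptx, which repairs DNA ends, 82.4% ± 2.64 (SD, n = 4). Cbx1-204 carries 1385 bases found in no other transcript of the gene. Aptx-205 leaves out 5 nt (chr4:40695419-40695423, minus strand) of the coding sequence and stood at 6.06, 4.28, 4.98 and 6.88 TPM against 0.6, 0.57, 0.62 and 0.75, with no overlap.

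Traffic and cytoskeleton gave 14 members with a median share of 42.5%, and 3 led in each library in both quantifications. Acap2, a GTPase activator for Arf6, stood at 24.6 ± 4.32 TPM with a share of 41.9% ± 4.31. Phosphoinositide and lipid enzymes gave 5 members, among them Cdipt, which makes phosphatidylinositol, at 36.3 ± 4.96 TPM and 55.8% ± 1.49. Dgkz, a diacylglycerol kinase, had 42.1% ± 4.57, and its transcripts of the NMD class together 64.6% (SD, n = 4). Ubiquitin and protein fate, with Ppia, gave 13 members, and 19 had another role or none assigned.

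**Figure D2:**
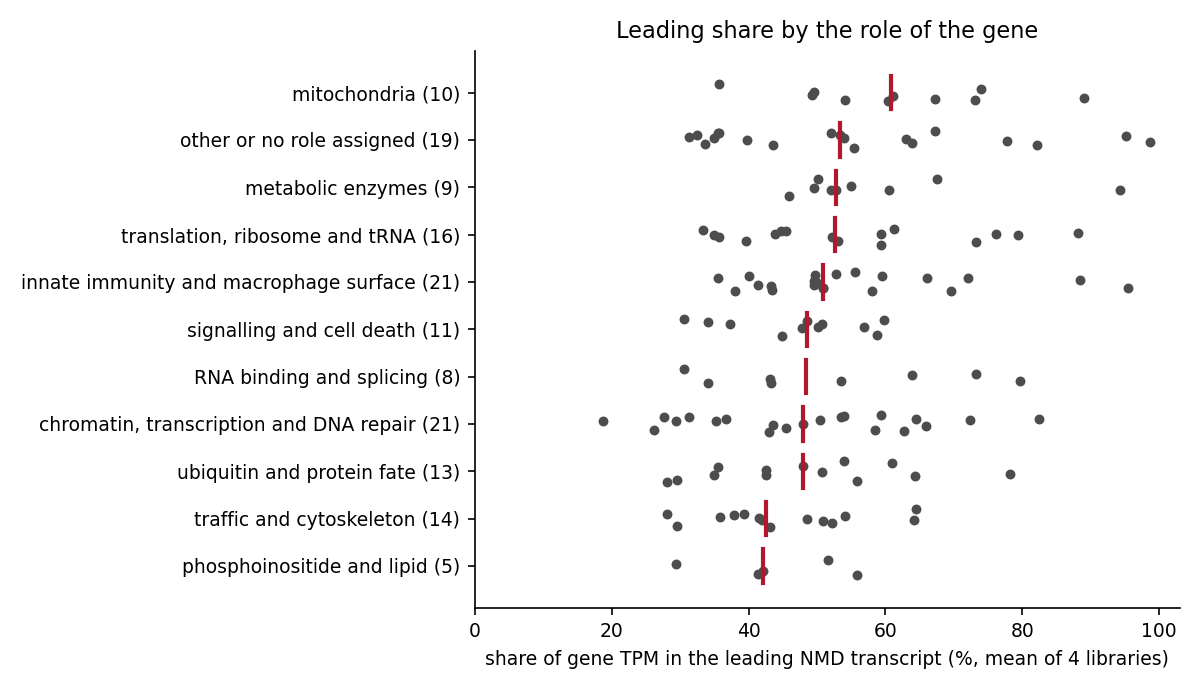
Share of gene TPM in the leading NMD transcript (percent, mean of 4 libraries) for each of the 147 members, by the textbook role of the gene. Each point is a gene and the red line the median of the group, from 42.1% for phosphoinositide and lipid enzymes to 60.8% for mitochondrial genes, and the ranges of all groups overlap.

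The 8 members with the highest share were Gm21988 (98.6% ± 2.73), Ifi214, Gm45140 (95.2% ± 4.12), Hyi, Mmaa, Colec12 (88.4% ± 2.68), Mrps14 and Aptx (SD, n = 4). Colec12 is a scavenger receptor of the collectin family. Gm21988 stood at 1.46 ± 0.375 TPM and has no protein_coding transcript, and its exons overlap 0610010K14Rik on the same strand. Gm45140 stood at 1.29 ± 0.171 TPM and overlaps Rab43. Of these 8 genes, 5 were under 5 TPM, beside 57 of all 147 members.

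At the edges of the rule, Slc35b1, Exog and Sh2b3 were the members with the smallest lead, at 1.002, 1.012 and 1.02 times their runner-up. Slc35b1 encodes a nucleotide-sugar family transporter, Exog a mitochondrial nuclease and Sh2b3 the adaptor LNK. Just outside were Gm38394, Abhd5 and Clasrp, whose NMD transcript reached 1, 0.9953 and 0.9926 times the coding one. Tyms, Gm21988 and Adhfe1 had 1.01, 1.02 and 1.03 TPM in their lowest library, while 4933427D14Rik, Cenpa and Tspan5 missed the minimum at 0.96, 0.96 and 0.95.

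The leading transcript of a member was the same in each library less often than that of a gene led by a protein_coding transcript, which is a description, since these levels chose the members. It led in each of the 4 libraries in 97 of 147 members (66.0%), beside 90.1% of 7881 genes led by a protein_coding transcript and 65.1% of 129 led by a retained-intron one. When the leader was chosen from 3 libraries, the same transcript led in the library left out for 78.1% to 84.5% of NMD-led genes. For protein_coding-led genes this was 94.9% to 95.7%, and for retained-intron-led genes 79.7% to 86.3%. The median leading share was 80.9% in protein_coding-led and 50% in retained-intron-led genes, beside 50.7% in members. The second quantification came from the same reads and is not an independent sample. In it, the leading transcript of the first led in each library in 91 members (61.9%). This held for 85% of protein_coding-led and 60.5% of retained-intron-led genes. In both quantifications, the leader was the same in each library in 67 members (45.6%), beside 81.5% and 51.9% of those genes. The credible interval that the deposited tables give for each level, whose coverage the header does not state, lay above that of every other transcript in all 4 libraries in 53 members. By expected reads in place of TPM, 102 members kept the same leader. The interval and the lead by expected reads were counted in members only, so no share of other genes stands beside them. Leading in each library in both, with the interval apart in 4 libraries and the lead by expected reads, was met by 45 members, among them Ppia, Oasl2, Lilr4b, Lilrb4a, Ostf1, Rgs1, Hnrnpu and Eif4a2.

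TPM divides reads by length. Within 1 library, a leader by TPM can therefore lose its place to the runner-up by expected reads only where it is the shorter. The ranks here are by means over 4 libraries of unequal depth, and a transcript other than the runner-up can also lead by reads. The leading transcript was shorter than the runner-up in 83 members, and 39 of these did not lead by expected reads. Among the 64 whose leader was not shorter, 6 did not, and these figures follow in part from the measure and the rule. The 2 quantifications gave shares within 10 percentage points of each other in 104 members, while the second was over 10 points lower in 31 and over 10 points higher in 12. The largest falls were in Rptor, the mTORC1 subunit raptor (44.9% ± 4.16 to 6.06% ± 1.00), and Glb1l (55.0% ± 14.7 to 23.8% ± 8.32). The largest rises were in Gm42715 (52.1% ± 2.32 to 93.1% ± 13.9) and Stard9, a kinesin (28.0% ± 5.97 to 67.4% ± 14; SD, n = 4). These 4 were picked for their values.

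**Figure D3:**
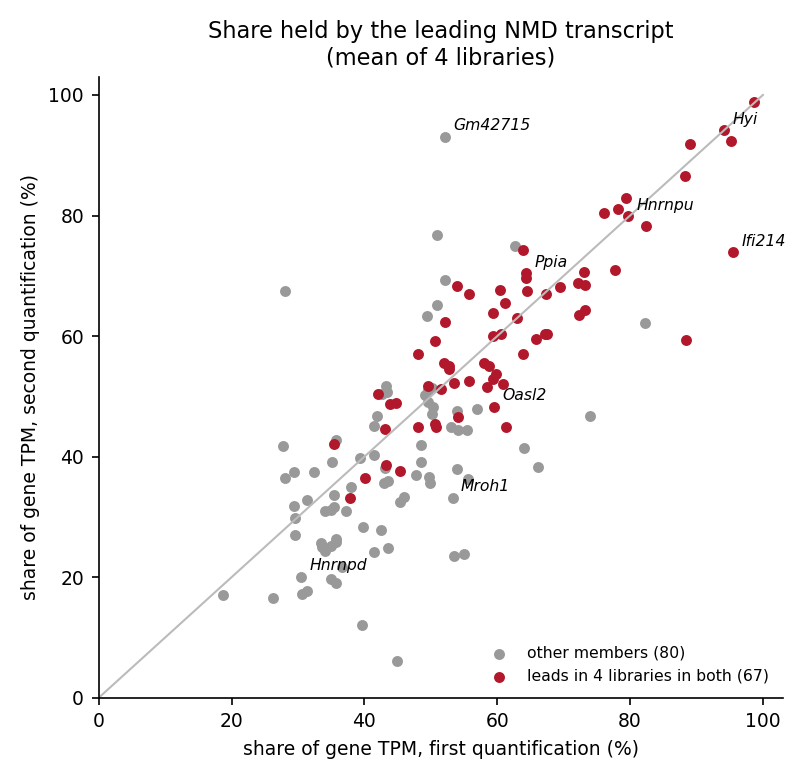
Share of gene TPM held by the leading NMD transcript (percent, mean of 4 libraries) in the first quantification (x axis) and the second (y axis), 1 point per member. The 67 red points led in each library in both; the grey line marks equal shares, and Gm42715 lies far above it, at 52.1% and 93.1%.

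The level of whole genes was compared between the 2 quantifications in a fit over all genes. Members had to reach 1 TPM in the first, so their difference is not fully independent of the rule. Both were rescaled to the same total over protein-coding genes, and differences beyond a log2 value of 1 (on the log2(TPM + 0.1) scale) were called with limma treat at a Benjamini-Hochberg adjusted p below 0.05. No member was called higher in the second, beside 3.3% of 14108 genes tested, and 1 member was higher at an unadjusted p below 0.05. One member was called lower, 1 of 147, beside 0.858% of all genes. The median log2 difference was 0.068 over members and 0.0505 over all genes tested, and 137 members lay within 0.5.

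The member called lower was Gm42715, a gene model whose exons overlap those of the chromatin remodeller Srcap on the same strand. It stood at 18.6, 22.3, 27.1 and 21.8 rescaled TPM in the first quantification and at 1.85, 3.31, 2.97 and 1.57 in the second, with no overlap. The log2 difference was -3.21 (SE 0.185, limma treat adjusted p = 0.0115), lower in 4 of 4 libraries. Without replicate 1 the adjusted p was 0.057 and without replicate 3 it was 0.0914, with log2 differences of -3.19 and -3.23. Lars2 had the largest rise, 2.28 (SE 0.557, limma treat adjusted p = 0.496), and A630001G21Rik had 1.11 (SE 0.141, adjusted p = 1), neither past the threshold. With TPM as deposited the median of all genes shifted by 1.38, and 7 of 147 members were then lower, including Ppia, Aup1 and Lilrb4a, beside 4.22% of 10323 genes tested on that scale.

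The annotation shows how the members' leading transcripts are built. A stop codon is annotated in 146 of 147, and in 145 it lies over 50 nt before the last exon junction, which is the criterion of the class. A median of 4 junctions follow the stop, with a median of 458 nt from stop to last junction. The stop codon is TGA in 86 of the members whose sequence was read, TAA in 31 and TAG in 26.

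In most members the early stop lies in sequence that the coding transcript also contains. For 92 (62.6%) the stop is in bases shared with the gene's most abundant coding transcript, and 66 of these share its start codon. For 20 the stop is in an exon that the coding transcript lacks, for 14 in an extension of a shared exon, and for 13 at a stop that a coding transcript also uses, followed by further junctions. An internal exon of the coding transcript is skipped in 54 members (36.7%), beside 35.6% of the other 4430 NMD transcripts of genes meeting the conditions. In 47 of these members exactly 1 is skipped, with a median length of 92 nt. Of the 47 lengths, 40 are not a multiple of 3, and this was not counted for the other NMD transcripts.

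**Figure D4:**
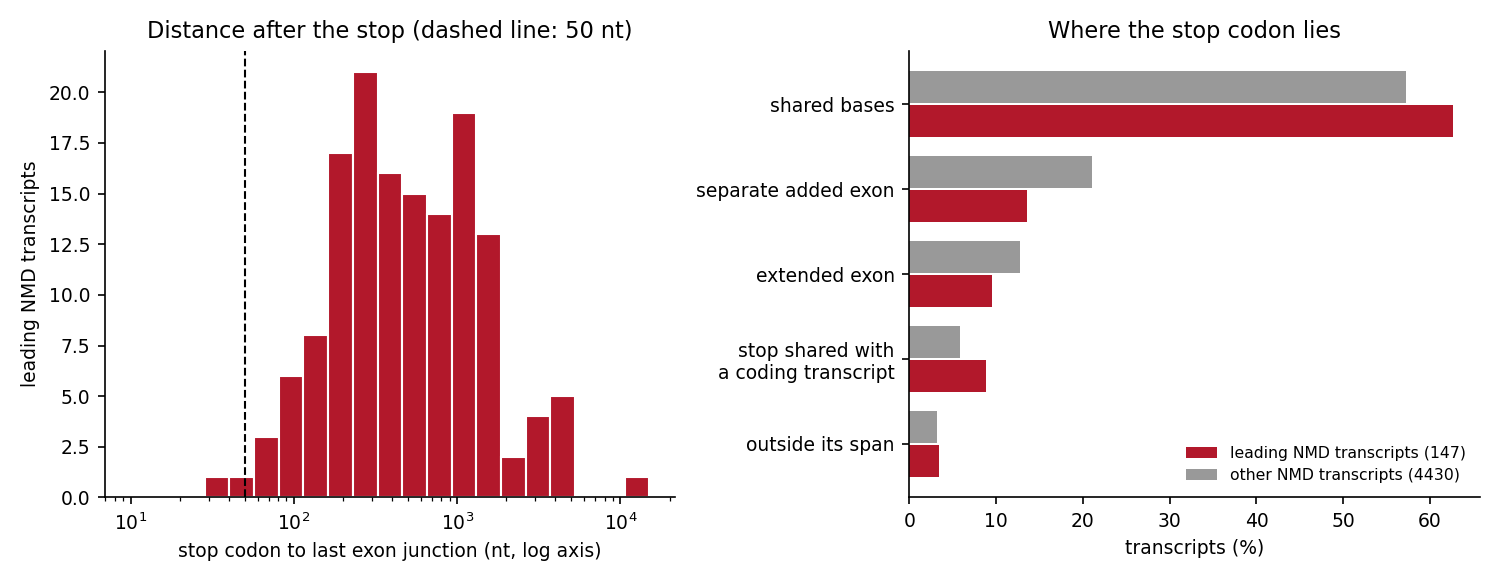
Left, number of leading NMD transcripts by the distance from stop codon to last exon junction (nt, log axis), with the 50-nt line dashed; the median was 458 nt. Right, percent of leading (red, 147) and other (grey, 4430) NMD transcripts by where the stop lies relative to the gene's most abundant coding transcript; shared bases were the commonest place in both, at 62.6% and 57.2%.

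Compared with the other 4430 NMD transcripts of the genes meeting the conditions, the members' leading transcripts are longer and better documented. Their median length is 2192 nt, against 1008. The best transcript support level (1, all junctions supported by an mRNA) is given to 79 (53.7%), against 26.2%. The start is annotated as not found in 25 (17.0%), against 30.9%. The coding transcript runs over 100 nt further at the 3′ end in 40.8% of members, against 68.7%, and the NMD transcript runs further in 28.6%, against 8.76%. These figures may not be independent of levels estimated on the same annotation, and no test was made.

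Some leading transcripts are hard to tell from others by sequence. In 24 members (16.3%) the transcript has neither a base nor a junction of its own among its gene's transcripts, beside 13.4% of other NMD transcripts. Of these 24, 8 had an interval apart in 4 libraries, beside 45 of the remaining 123. Hnrnpd, Lilr4b, Lilrb4a, Eif4a2 and Aptx are among the 24, so their levels rest on combinations of shared junctions. Exons overlap another gene on the same strand in 13 members and on the opposite strand in 41, by any length. No source used here gives the strand of the libraries, so reads within such an overlap cannot be assigned to a strand.

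The decay machinery itself was expressed. All 22 NMD factors and all 9 exon junction complex genes lay above 1 TPM (limma, one-sided, adjusted p below 0.05), beside 58.2% of 16262 genes tested that were above and 35.1% below. Their median levels were 7.76 TPM and 15.6 TPM. Only 5 of the 22 and 1 of the 9 have an annotated NMD transcript, which membership requires, and none of the 31 was a member. The 3 highest were Pnrc2, a decapping adaptor (32.5, 31.3, 32.0 and 50.4 TPM), Eif4a3, the RNA clamp of the junction complex (40.2, 28.5, 33.7 and 31.4 TPM), and Etf1, the release factor eRF1 (34.0, 24.4, 29.0 and 34.0 TPM). Upf1, the central helicase, stood at 12.4, 9.04, 14.3 and 15.7 TPM, a log2 difference of 3.53 from the level of 1 TPM (SE 0.149, limma adjusted p = 4.03e-09). Upf3b was the lowest of the 31, at 2.34, 2.08, 2.33 and 2.67 TPM (log2 difference 1.15, SE 0.14, limma adjusted p = 1.72e-05). Magohb spread most among the 31, with 10.2 TPM in replicate 1 and 3.48 to 5.84 in the others. RNA level says nothing of the activity of the pathway, which was not measured.

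**Figure D5:**
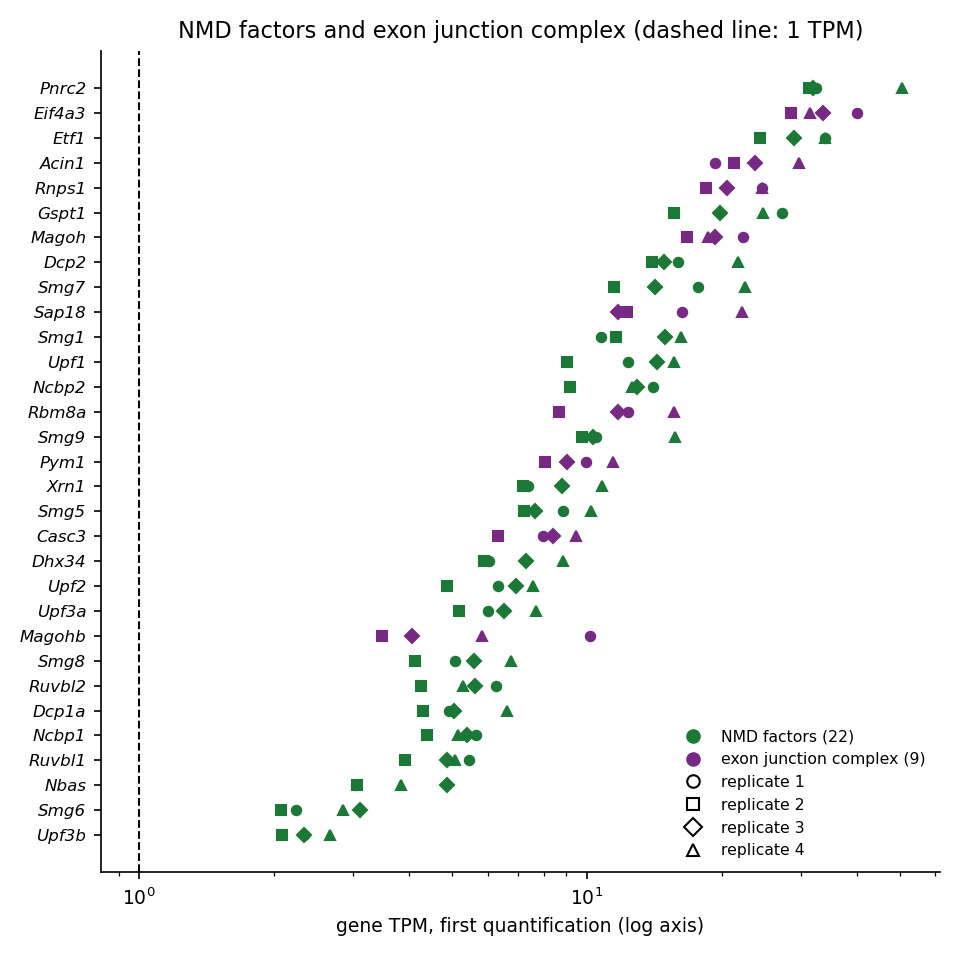
Gene TPM (log axis) of 22 NMD factors (green) and 9 exon junction complex genes (purple) in each library, symbols marking replicates 1 to 4. All points lie to the right of the dashed line at 1 TPM, from Upf3b at 2.08 to 2.67 up to Pnrc2 at 31.3 to 50.4.

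No NMD factor was led by an NMD transcript. Of the 22 factors, 5 have an annotated NMD transcript, and the highest share in that class was 16.1% ± 3.54 in the endonuclease Smg6 (SD, n = 4). Of 16 classical NMD-sensitive genes, which include the stress factors Atf4 and Ddit3, 14 lay above 1 TPM and 2 below. Only 1 of the 16, Tbl2, has an annotated NMD transcript, which membership requires, and none was a member. Upp1 (0.352 ± 0.14 TPM; limma adjusted p = 0.000227) and Slc7a11 (0.492 ± 0.169 TPM; limma adjusted p = 0.00141) were the 2 below. All 16 macrophage identity genes, all 24 interferon-stimulated genes and all 33 genes of TLR4 and NF-kB signalling lay above 1 TPM. Of the genes in these 3 lists, 2, 8 and 9 have an annotated NMD transcript. Oasl2 and Xaf1, both of the interferon-stimulated list, were the only members. Members were 1.74% of all genes meeting the conditions and 5.3% of those with an NMD transcript. Of the 60 genes in the list of mostly splicing and RNA-binding factors, 59 lay above and Rbfox2 (0.04 ± 0.0115 TPM, limma adjusted p = 1.02e-07) below.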

How the data were processed

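Per the file headers, each library had a gene table and a first transcript table with expected counts, TPM and posterior mean TPM, and a second transcript table with estimated counts and TPM, all made by the authors and used as deposited. The deposited interval bounds of each transcript's TPM (a signal on the TPM scale) have no stated coverage. Per the deposited README of each library, the build was mm10 with annotation M21. Per the same source, reads aligned to the transcriptome gave the first quantification and unaligned reads the second. Unaligned is taken here as the same reads before alignment, not as reads that failed to align. For tools, versions and strand: not given in the sources used here. All members, gene lists and role groups were chosen with earlier results of these data known.

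Transcript types came from the second table, in which 95 transcripts have no row. Structures and sequences came from GENCODE M21. The coding transcript of a gene is its protein_coding transcript with the highest mean TPM. Means and SDs are over 4 libraries. Precision follows depth, and members under 5 TPM rest on few reads. Limma 3.58.1 in R 4.3.3 was fitted across all genes on log2(TPM + 0.1): against 1 TPM for genes with at least 10 summed expected counts, and second minus first quantification for genes of at least 1 TPM in either. Both fits were tested on simulated data. Tables were handled in Python 3.11.15 (pandas 2.3.3, numpy 2.4.6), with figures in matplotlib 3.10.9.

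Genes named are the 12 highest members, the 8 with the highest share, the 8 highest leading in both quantifications, those nearest the limits, members of lists, called members and the 3 highest factors. Examples of each role, the highest in gene TPM or picked for their values, were added after the values were seen. Alternatives changed the ranking measure, minimum level, pseudocount, filter, scaling and libraries. Some genes are not reported here.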

Additional observations from a re-analysis of the deposited data

Results flagged for a closer look

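Among the values of named genes and of transcript classes over the 4 libraries, a library far from the other 3 (gap over range above Dixon's critical value) was found in 4 of 86 sets, and chance flags about 5% of sets. The leading share of Rnf114 was 57.2% in replicate 1 and 52.5% to 53.3% in the others. That of Gm21988 was 94.5% in replicate 3 and 100% in the others. Pnrc2 stood at 50.4 TPM as deposited in replicate 4 and at 31.3 to 32.5 in the others. Genes meeting the conditions together held 31.3% of the TPM in replicate 4 and 21.4% to 26.8% in the others, and the part of this in the flag was not tested. Processed transcripts held 1.09% of the expected counts of genes meeting the conditions in replicate 2 and 0.983% to 1% in the others. Over all 147 members, 3 were apart by this measure in gene TPM and 10 in leading share.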

How the results depend on the processing

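No paired analysis was possible because there is only 1 group of samples, with no second group to share replicate numbers. The quantifications were compared within each library. Of 54 alternatives, 42 left their result within 1.5 times its count or 1 SD of its value. The number of members was 147, from 148 to 160 when a replicate was left out (139 to 145 of the 147 shared), 123 when ranked by expected count (102 shared), 150 by posterior mean TPM (144 shared), 189 by the second quantification (117 shared) and 140 when summed NMD TPM was set against summed protein_coding TPM (120 shared). It moved to 78 with a minimum of 5 TPM and to 290 with no minimum. The median leading share of 50.7% moved to 48.6% by posterior mean TPM and to 47.5% in the second quantification. The 31 factors stayed above 1 TPM in each of 10 alternatives. The count of all genes called between quantifications, 586, moved to 244 with a pseudocount of 1 and to 250 with a minimum of 10 TPM, and ran from 258 to 588 when a replicate was left out (362 without replicate 2, 258 without replicate 3, 277 without replicate 4). Members called lower numbered 1, moved to 7 with TPM as deposited (where 665 of all genes were called in either direction), and ran from 0 to 1 when a replicate was left out. No alternative called a member higher. The causes were not tested. Members under 5 TPM limit the precision, since few reads separate their transcripts.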
